A study of Mus musculus with 4 samples.

Results

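The Armcx and Gprasp genes are a family of armadillo-repeat genes that lie together on mouse chromosome X. The 8 members described here, Armcx1, Armcx2, Armcx3, Armcx4, Armcx5, Armcx6, Gprasp1 and Gprasp2, were taken by gene symbol out of 28193 genes in the deposited table, and all 8 were among the 22338 genes with enough counts to test. The set was selected on the SD against NSD levels of Armcx4, which was higher, and Armcx5, which was lower, in these same libraries, so the differences of the members between the groups are given as a description, and nothing is drawn from their place in a test.

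Proteins of the Armcx branch, also called ALEX proteins, include several that sit on the outer mitochondrial membrane, where Armcx1 and Armcx3 are known to act on the movement of mitochondria along axons. Gprasp1 and Gprasp2 are better known as G protein-coupled receptor-associated sorting proteins, which bind the tails of internalised receptors, and Gprasp1 directs some of them towards lysosomes. Armcx4 and Armcx5 carry related armadillo-like repeats and are much less studied. The family is particular to placental mammals and is strongly expressed in brain.

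In the fosTRAP-seq experiment, male C57BL/6J mice of 3 to 5 months received 2 viral vectors in dorsal CA1. A c-Fos promoter drove a tamoxifen-dependent Cre (ERT2-Cre-ERT2) from the first, and the second carried a Cre-dependent HA-tagged ribosomal protein Rpl22 (RiboTag). Both groups were sleep deprived for 5 h on day 0 with 4-hydroxytamoxifen at ZT2, so that cells active at that time were tagged. On day 7 the SD group was sleep deprived for 5 h again by gentle handling and the non-sleep-deprived (NSD) group was left undisturbed. Tissue was taken at ZT5, and RNA bound to tagged ribosomes was sequenced from pools of 5 mice, with 2 libraries and 10 mice per group. The labels give the tissue as dorsal hippocampus and the genotype as cFos-Cre:Ribotag, and number the libraries by batch (1 or 2 in each group). No library of the RNA before the ribosome pull-down was used here, so fewer tagged cells of a type and less RNA per cell cannot be told apart, and neither can RNA abundance and ribosome binding.

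The libraries held 153511705 to 195910235 estimated counts. All 60 marker genes of the 6 cell types looked at were counted in at least 1 library. Summed markers of CA1 pyramidal cells stood at 6230 to 6854 CPM (estimated counts scaled to one library size with TMM factors), astrocyte markers at 3086 to 3671 CPM, oligodendrocyte markers at 1630 to 1966 CPM, interneuron markers at 1116 to 1201 CPM, microglial markers at 90.5 to 118 CPM and endothelial markers at 26.4 to 69.5 CPM. The endothelial sum was lower in both SD libraries (40.7 and 26.4 CPM) than in both NSD libraries (49.7 and 69.5 CPM), and the astrocyte sum was higher (3662 and 3671 CPM in SD, 3545 and 3086 CPM in NSD). The median log2 difference was -0.76 over the endothelial, -0.24 over the pyramidal and 0.04 over the astrocyte markers. With edgeR, 0 of the 60 markers were called after Benjamini-Hochberg adjustment, and 7 endothelial, 5 pyramidal, 2 astrocyte, 1 interneuron and 1 oligodendrocyte marker had an unadjusted p under 0.05. With the batch number as a block 6 endothelial and 5 pyramidal markers were called, with 1 each for interneurons, astrocytes and oligodendrocytes. With DESeq2, 4 endothelial, 5 pyramidal, 1 astrocyte and 1 oligodendrocyte marker were called. Each cell type had 10 markers. Over all 22338 genes tested, 4264 had an unadjusted p under 0.05 with edgeR, which called 0.77% higher and 2.33% lower. The block called 2.99% of all genes higher and 8.47% lower, and DESeq2 called 669 genes higher and 1294 lower. The part of these shifts in the values below was not tested.

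The members lie on the plus or minus strand of chromosome X in 2 groups (GRCm39, coordinates of the deposited table). Armcx4 (ENSMUSG00000049804, chrX:133587268-133597506, plus strand), Armcx1 (ENSMUSG00000033460, chrX:133618712-133622666, plus), Armcx6 (ENSMUSG00000050394, chrX:133649210-133652166, minus), Armcx3 (ENSMUSG00000049047, chrX:133657344-133662204, plus) and Armcx2 (ENSMUSG00000033436, chrX:133704894-133709970, minus) form the first group. A gap of 934 kb separates Armcx2 from the second group, made up of Armcx5 (ENSMUSG00000072969, chrX:134643482-134648071, plus), Gprasp1 (ENSMUSG00000043384, chrX:134643482-134704223, plus) and Gprasp2 (ENSMUSG00000072966, chrX:134739783-134745479, plus). Armcx4 has by far the longest product of the 8, with 2355 residues in the canonical annotated protein, against 1346 for Gprasp1, 825 for Gprasp2, 783 for Armcx2, 605 for Armcx5, 455 for Armcx1, 378 for Armcx3 and 300 for Armcx6.

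Promoter sequence is shown for 5 members because 2 features of it set them apart from one another. Armcx5 and Gprasp1 have the same window at their RefSeq start, and Armcx4 shares a pair of short motifs with Armcx1 and Armcx6. Other start sites and the use of each promoter were not examined. RefSeq start sites (GRCm38.p6) were available for 7 of the 8 members, not Armcx3, and gave 6 distinct windows from 250 bases before to 50 bases after the start. Each window matched GRCm39 chromosome X once. The stretches below run from 60 bases before to 30 bases after the start on the gene's own strand, with TGACG and CACGTG in capitals.
Armcx4 promoter, plus strand, chrX:133587208-133587297: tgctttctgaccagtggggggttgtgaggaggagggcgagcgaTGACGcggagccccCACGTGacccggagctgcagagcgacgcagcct
Armcx1 promoter, plus strand, chrX:133618627-133618716: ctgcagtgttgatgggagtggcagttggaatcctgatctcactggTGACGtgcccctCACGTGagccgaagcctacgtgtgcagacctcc
Armcx6 promoter, minus strand, chrX:133652139-133652228: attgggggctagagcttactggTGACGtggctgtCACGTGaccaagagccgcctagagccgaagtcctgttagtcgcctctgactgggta
Armcx5 and Gprasp1 promoter, plus strand, chrX:134643381-134643470: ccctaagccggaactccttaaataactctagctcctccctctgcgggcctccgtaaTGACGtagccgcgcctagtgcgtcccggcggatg
In Armcx4, TGACG began 17 bases before the start and was followed after 9 bases by the E-box CACGTG. In Armcx1 and Armcx6 the same order was found with 7 bases between. CACGTG was present in 3 of the 6 windows, against 7.15% of the 32851 RefSeq promoter windows, and TGACG, which is the first part of the cAMP response element, in 4 of 6, against 20.8%, both searched on both strands. TGACG followed by CACGTG within 30 bases occurred in the windows of Armcx1, Armcx4 and Armcx6, and in 0.423% of all windows. The full cAMP response element TGACGTCA (1.79% of all windows) and the AP-1 motif TGANTCA (7.81%) were in none of the 6. These motifs were looked for after the windows had been seen, and TGACG is contained in TGACGTCA, so the shares are a description of the letters.

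Armcx4 was the member with the widest separation between the groups. Its level was 124 CPM in NSD 1, 129 CPM in NSD 2, 269 CPM in SD 1 and 217 CPM in SD 2. Each SD library was higher than either NSD library, and the SD libraries differed more from each other than the NSD libraries did. The means were 127 ± 3.31 CPM in NSD and 243 ± 36.6 CPM in SD (standard deviation, n = 2 libraries each), a ratio of 1.92, and the fitted log2 difference was 0.94 with a standard error of 0.104. Within batch 1 the log2 difference was 1.11 and within batch 2 it was 0.75. Among the 15551 protein-coding genes tested it ranked 69th from the top. Among the 2143 of them with a mean of at least 100 CPM, 3 had a larger positive value. The set was chosen on this rise of Armcx4, so these ranks are a description. The estimated counts behind these levels were 20626, 20281, 48662 and 41116, all whole numbers to within 0.0001. Of the 31-base words in the Armcx4 transcript, 0.867% also occurred in transcripts of another gene, mostly those of the noncoding RNA B230119M05Rik, which has no row in the table.

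Armcx5 was lower in SD. Its level was 24.9 CPM in NSD 1, 27.6 CPM in NSD 2, 20.0 CPM in SD 1 and 19.9 CPM in SD 2. The groups did not overlap, and the SD libraries were nearly equal. The means were 26.2 ± 1.95 CPM in NSD and 19.9 ± 0.0135 CPM in SD (standard deviation, n = 2 each), a ratio of 0.76, and the fitted log2 difference was -0.40 with a standard error of 0.0836. Within batch 1 it was -0.32 and within batch 2 it was -0.47. Armcx5 ranked 1451st from the bottom of the 15551 protein-coding genes tested.

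The other 6 members stayed closer to their NSD values. Armcx3, the mitochondrial protein that binds the Miro and Trak2 transport machinery, was at 66.6 and 74.7 CPM in NSD and at 78.3 and 79.1 CPM in SD, with a fitted log2 difference of 0.16. Armcx1, which promotes mitochondrial transport in axons, was at 54.8 and 58.0 CPM in NSD and at 58.2 and 65.7 CPM in SD, with a difference of 0.14. In both genes the SD libraries lay above the NSD libraries, in Armcx1 by a margin far smaller than the gap within either group. Armcx2 was at 121 and 132 CPM in NSD and at 131 and 144 CPM in SD, with a difference of 0.12, and its groups overlapped. Armcx6, the shortest of the proteins, was at 3.69 and 3.57 CPM in NSD and at 3.62 and 3.55 CPM in SD. The receptor-sorting Gprasp1 was at 719 and 672 CPM in NSD and at 673 and 767 CPM in SD, and Gprasp2 at 157 and 154 CPM in NSD and at 147 and 169 CPM in SD. In both Gprasp genes the difference changed sign between the batches, from -0.10 in batch 1 to 0.19 for Gprasp1 and 0.13 for Gprasp2 in batch 2.

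**Figure D1:**
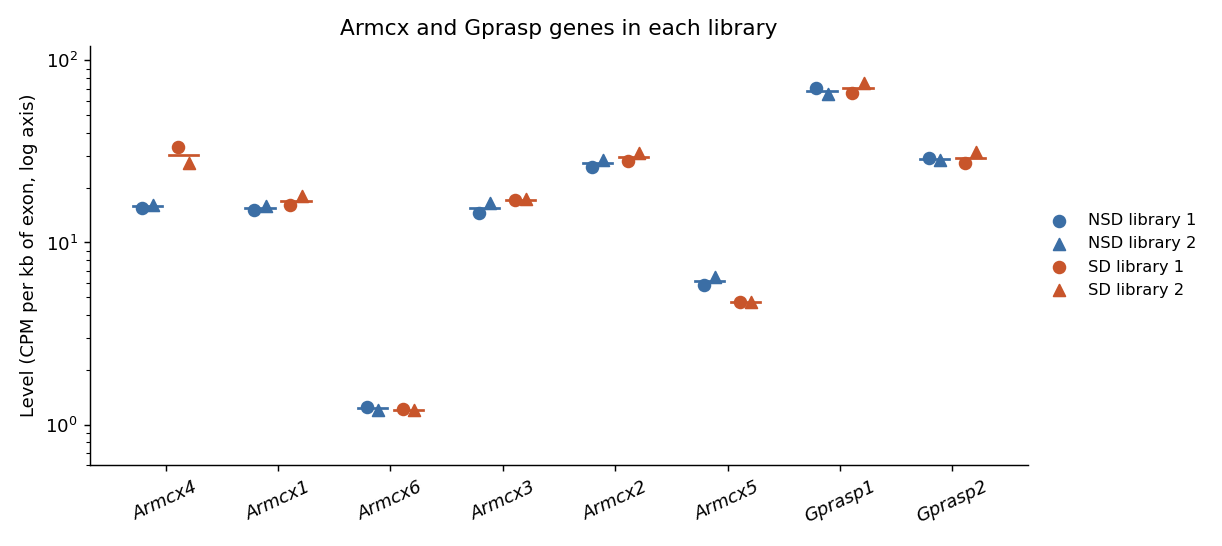
Level of each Armcx and Gprasp gene in every library, in CPM per kb of annotated exon on a log axis, with NSD in blue, SD in orange, circles for library 1, triangles for library 2 and a short line at each group mean. Armcx4 moves from 15.5 and 16.1 in NSD to 33.6 and 27.2 in SD, Armcx5 lies lower in SD, and the points of the other 6 genes lie close together.

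**Figure D2:**
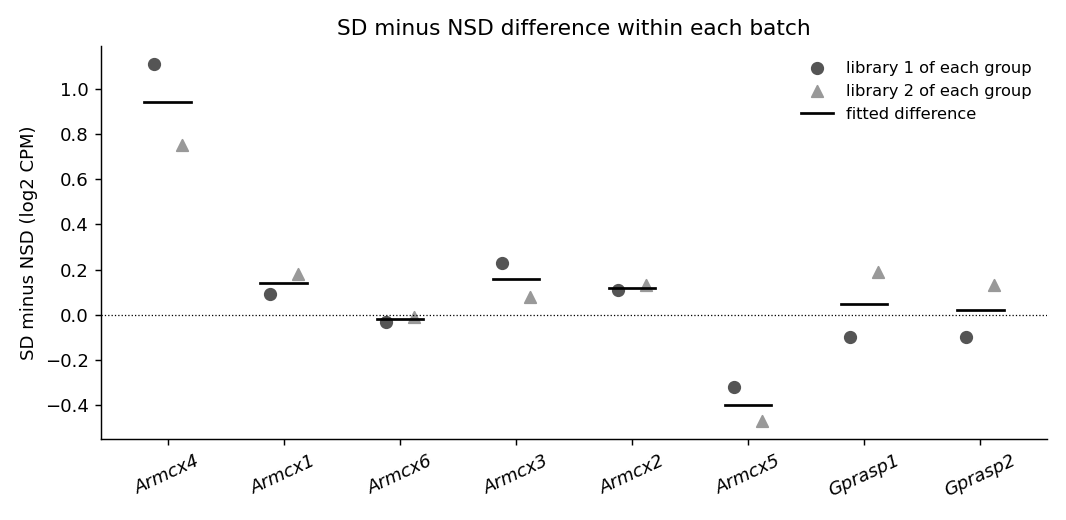
SD minus NSD difference in log2 CPM for each gene, with a circle for batch 1, a triangle for batch 2 and a line at the fitted difference. The 2 batches have the same sign in all genes but Gprasp1 and Gprasp2.

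Counted over the members, the SD libraries lay wholly above the NSD libraries in 3 of 8 genes (22% of all genes tested) and below in 1 of 8 (27.5% of all genes tested), and the groups overlapped in 4. The median log2 difference was 0.085 over the members, -0.016 over all genes tested, 0.018 over protein-coding genes and 0.013 over genes of chromosome X. In the edgeR fit over all genes, where a call took a fold change over 1.2 at an adjusted p under 0.05, 1 member was called higher (0.77% of genes tested were) and 1 lower (2.33% were). These are Armcx4 and Armcx5, the pair on which the set was chosen, so nothing further is read from the count. With the batch number as a block the same pair was called, with 2.99% of all genes higher and 8.47% lower, but Armcx5 lost its call in all but 3 of the 10 alternatives and Armcx4 lost its call with filterByExpr.

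**Figure D3:**
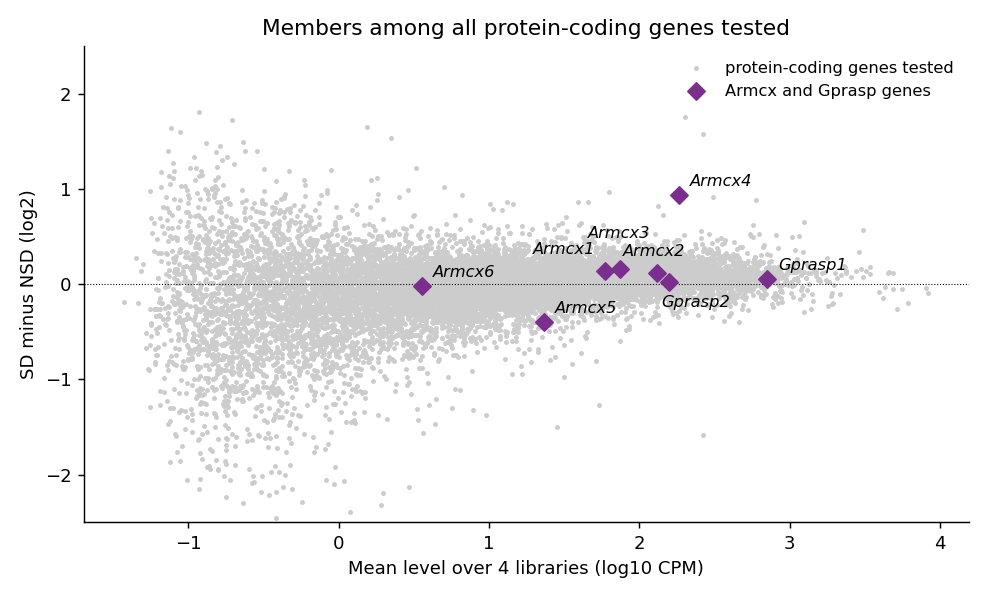
Fitted SD minus NSD log2 difference against mean level (log10 CPM) for protein-coding genes tested (grey; 2 genes lie beyond the plotted range of 2.5 in either direction) and the Armcx and Gprasp genes (purple diamonds). Armcx4 stands well above the grey band at its level, Armcx5 lies below 0, and the other 6 diamonds lie close to 0.

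Divided by the length of their merged exons, the levels ran in the order Gprasp1 (69.1 CPM per kb), Gprasp2 (29.0), Armcx2 (28.4), Armcx4 (23.1), Armcx3 (16.4), Armcx1 (16.2), Armcx5 (5.44) and Armcx6 (1.22), as means over the 4 libraries. Gprasp1 was 2.30 to 2.42 times as high as Gprasp2 in every library. Armcx1 was 2.45 to 3.84 times as high as Armcx5, and Armcx5 was 3.85 to 5.37 times as high as Armcx6. The neighbours in between (Gprasp2 and Armcx2, Armcx2 and Armcx4, Armcx4 and Armcx3, Armcx3 and Armcx1) overlapped over the libraries and are not separated. Armcx4 was at 0.594 and 0.567 times the per-kb level of Armcx2 in NSD 1 and NSD 2, and at 1.2 and 0.877 times in SD 1 and SD 2. Per length of merged exons, Armcx4 thus stood next to Armcx1 and Armcx3 in NSD and next to Armcx2 and Gprasp2 in SD. By longest transcript, the means were 97.4 CPM per kb for Gprasp1, 29.1 for Gprasp2, 33.9 for Armcx2 and 22.8 for Armcx4. The ratios between members thus depend on the length used. Summed over the 8 members the level was 1272 and 1251 CPM in NSD and 1380 and 1466 CPM in SD, and without Armcx4 it was 1147 and 1122 CPM in NSD and 1111 and 1249 CPM in SD.

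Armcx5 and Gprasp1 start at the same base on the same strand and share 456 exon bases, 10.7% of the exon bases of Armcx5 and 4.46% of those of Gprasp1. Armcx5 spans 4590 bases and ends inside an early intron of Gprasp1, which spans 60742 bases. Armcx5 made up 3.34% and 3.95% of the CPM of the pair in NSD 1 and NSD 2, and 2.88% and 2.53% in SD 1 and SD 2, so its share was lower in both SD libraries while Gprasp1 overlapped between the groups. The table holds Armcx5 as fractional estimates (4120.2, 4337.03, 3606.39 and 3769.44 counts). Of the 31-base words in the Armcx5 transcript, 31.2% also occurred in other genes, 461 of the 2842 in the processed pseudogene Gm8878, which had at most 7 counts in any library, and 412 in Gprasp1. How reads of shared sequence were assigned was not tested, and the level of Armcx5 is uncertain to that extent.

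**Figure D4:**
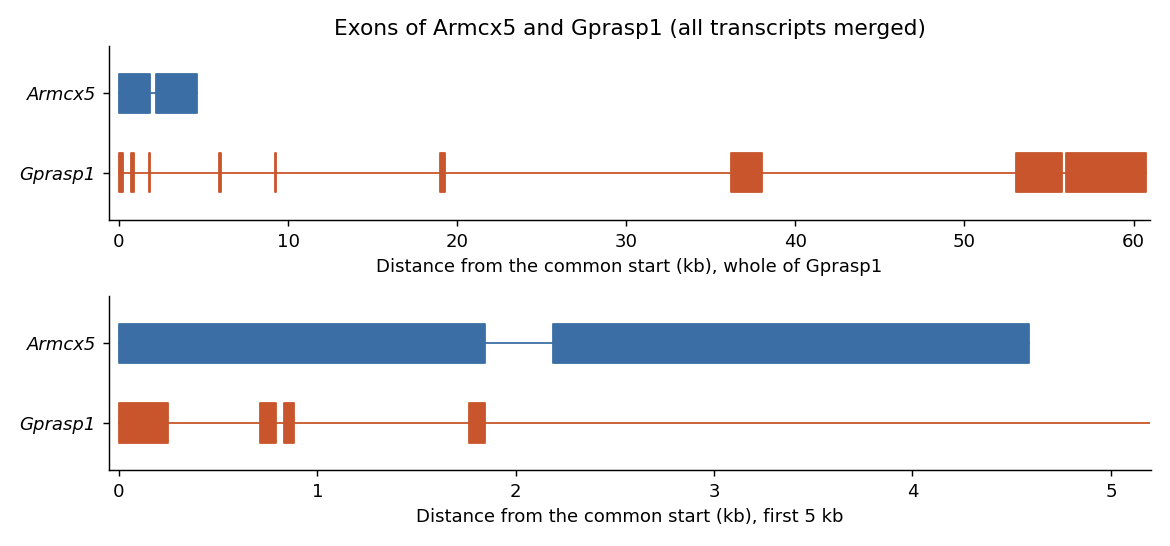
Exons of Armcx5 (blue) and Gprasp1 (orange), all annotated transcripts merged, as boxes over distance from their common start in kb, for the whole of Gprasp1 above and for the first 5 kb below. Exons overlap at the common start, Armcx5 ends at 4590 bases, before the next exon of Gprasp1 at 5924 bases, and most exon sequence of Gprasp1 lies beyond 36174 bases.

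Other members share sequence too. Armcx3 had 37.8% of its words in other genes, most of them in the processed pseudogene Gm9299, which held 509.7 to 730.6 counts, against 11042 to 14952.3 for Armcx3. Armcx6 had 19.9%, mostly in the pseudogene Armcx7-ps, which held at most 5.59 counts. Gprasp2 had 17.6% and Gprasp1 14.0%, largely with each other, with Armcx5 and with Bhlhb9, a related gene also known as Gprasp3. Armcx1 had 0.0842% and Armcx2 none. In the GENCODE vM39 models, Armcx3 and Armcx6 overlap by 951 exon bases on opposite strands. The libraries were stranded, but whether the counting used it is not given in the sources used here.

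Of 34 other genes within 500 kb of a member, 26 could be tested, and 0 were called by edgeR, with the batch block or with DESeq2, with 2 at an unadjusted p under 0.05. Over all genes tested, 0.77% were called higher and 2.33% lower by edgeR, so its count of 0 among so few genes does not set these apart. The block called 2.99% of all genes higher and 8.47% lower, and DESeq2 called 669 of 22338 higher and 1294 lower. An unadjusted p under 0.05 was found with edgeR for 4264 of the 22338. Whether the neighbours depart from these larger shares was not tested. The 19 with a mean of at least 1 CPM had a median log2 difference of 0.004 and a range from -0.19 to 0.31. Over all 26 the median was -0.029 and the range was from -1.14 to 0.63, with both ends at genes under 1 CPM (Gm7855 and Cenpi). Bhlhb9, which overlaps Gprasp2 by 376 exon bases, was at 43.4 and 51.5 CPM in NSD and 47.9 and 49.4 CPM in SD (log2 difference 0.04, edgeR adjusted p = 0.883). Hnrnph2 on the Armcx4 side and Bex2 beyond Gprasp2 differed by -0.03 and -0.09.

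**Figure D5:**
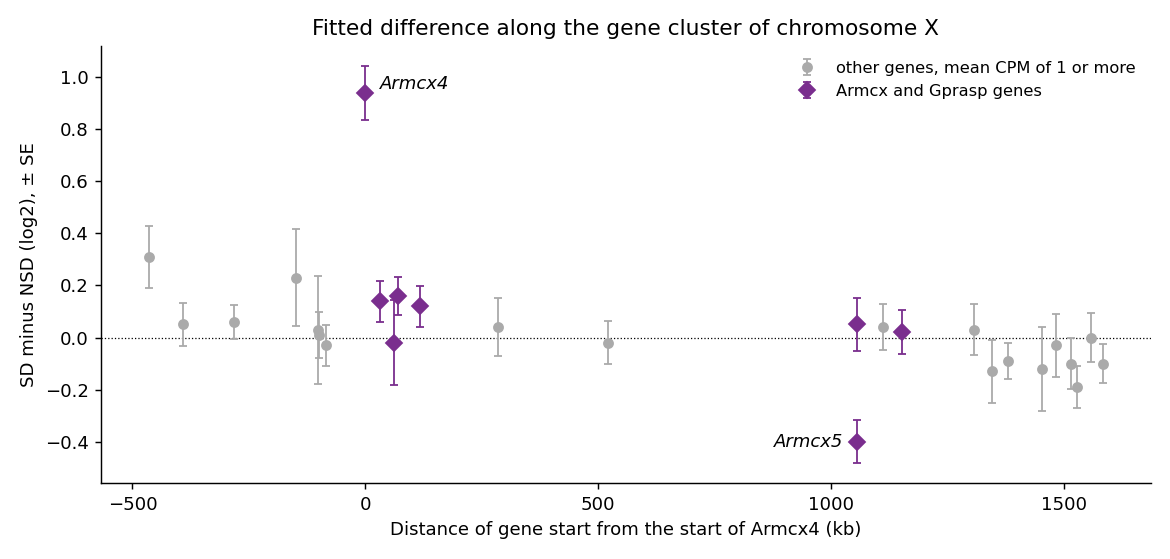
Fitted SD minus NSD log2 difference with its standard error for the Armcx and Gprasp genes (purple) and the 19 other genes within 500 kb with a mean of at least 1 CPM (grey), by distance of the gene start from the start of Armcx4 in kb. Armcx4 lies at 0.94 and Armcx5 at -0.40, and all grey points lie between -0.19 and 0.31. The tested neighbours under 1 CPM, which ranged from -1.14 to 0.63, are not drawn.

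The related X-linked families Bex, Tceal and Arxes, with Bhlhb9 and Armc10, the autosomal relative from which the Armcx genes are thought to derive, were looked at in the same fit. The 15 of 16 listed symbols that had a row were tested, and 0 were called by edgeR, with the batch block or with DESeq2. Of all genes edgeR called 0.77% higher and 2.33% lower, the block 2.99% and 8.47%, and DESeq2 669 and 1294 of 22338. With edgeR 1 of the 15 had an unadjusted p under 0.05, as did 4264 of the 22338. With so few genes nothing is read from these counts. Their median log2 difference was -0.042, with a range from -0.22 to 0.05. Armc10 was at 8.34 and 8.89 CPM in NSD and 9.39 and 8.41 CPM in SD.

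Genes of mitochondrial transport, dynamics and quality control were looked at because Armcx1 and Armcx3 act there. Of 24 genes tested, 1 was called higher and 1 lower by edgeR, against 0.77% and 2.33% of all genes. The median log2 difference was 0.098 over the list, -0.016 over all genes and 0.018 over protein-coding genes. Kif5a, a heavy chain of the kinesin-1 motor, was at 2590 and 2370 CPM in NSD and at 3520 and 3800 CPM in SD, and both SD libraries were higher (log2 difference 0.56 ± 0.12 SE, edgeR adjusted p = 0.0481). With the batch block, which called 2.99% of all genes higher and 8.47% lower, Kif5c, another kinesin-1 heavy chain, was called as well. Kif5c was at 912 and 988 CPM in NSD and 1200 and 1240 CPM in SD (log2 difference 0.36, edgeR adjusted p = 0.0072 with the block and 0.0886 without). The Miro and Trak genes did not pass the test. Rhot1 (Miro1) differed by 0.01, Rhot2 (Miro2) by 0.14, Trak1 by 0.15 and Trak2 by 0.18. Kif5a was not called when any 1 library was left out (edgeR adjusted p = 0.0874 without NSD 1, 0.107 without NSD 2, 0.0624 without SD 1 and 0.135 without SD 2).

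Genes of receptor phosphorylation and endosomal sorting were looked at for the Gprasp proteins. Of 24 listed symbols 22 had a row and were tested, 0 were called by edgeR (0.77% of all genes were called higher and 2.33% lower), and 7 had an unadjusted p under 0.05 (4264 of all 22338 genes did), with a median log2 difference of 0.036. With the batch block, which called 2.99% of all genes higher and 8.47% lower, 2 receptor kinases were called higher, Grk5 at 20.7 and 20.0 CPM in NSD and 28.5 and 23.5 CPM in SD (edgeR adjusted p = 0.00925) and Grk3 at 152 and 139 CPM in NSD and 181 and 173 CPM in SD (edgeR adjusted p = 0.00749).

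The genes whose profile over the 4 libraries was most like that of Armcx4 were found among 12984 protein-coding genes with a mean of at least 1 CPM, by the root-mean-square difference of log2 CPM after each gene's mean was subtracted. They were Efcab2 (0.0777; 7.4, 7.09, 13.8 and 12.2 CPM in NSD 1, NSD 2, SD 1 and SD 2), Tchh (0.0847; 3.03, 3.63, 7.45 and 6.05 CPM) and Nopchap1 (0.1; 432, 402, 907 and 632 CPM), against a median of 0.473 over all genes compared. For Armcx5 they were Nlrx1 (0.0111; 10.5, 11.9, 8.47 and 8.54 CPM), Iqck (0.0139; 1.98, 2.24, 1.6 and 1.57 CPM) and Fra10ac1 (0.0159; 3.31, 3.65, 2.58 and 2.65 CPM), against a median of 0.235. None of the 6 lies on chromosome X. With 4 libraries many genes can share such a profile.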

How the data were processed

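Ribosome-associated RNA was sequenced with a stranded total RNA kit after rRNA depletion, as 150-base paired reads. Per the labels and the study's methods, the authors aligned reads with STAR to mm39, quantified genes of Ensembl 110 in Partek by expectation-maximization, and deposited the estimated counts unnormalized. Groups were taken from the labels. Estimated counts were rounded and genes at 5 counts or fewer in any library were dropped. In edgeR 4.0.16 (R 4.3.3), TMM scaling and quasi-likelihood testing were used with 1 factor, the condition. The standard error of a fitted log2 difference was derived as its size divided by the square root of its quasi-likelihood F statistic. Calls were made at a fold change over 1.2 and a Benjamini-Hochberg adjusted p under 0.05. DESeq2 1.42.0 was an alternative, as were other filters, scaling, protein-coding genes alone and each library left out. CPM used TMM factors (0.965 to 1.02), and log2 values of single libraries a prior count of 2. The steps were tested on simulated data.

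The labels give same-numbered libraries one batch, so they pair; their deviations from group means correlated at 0.178. Libraries are pools of mice. With 2 libraries per group, precision is set by their spread and not by depth. Exon lengths came from GENCODE vM39 within the deposited gene spans (27962 of 28193 gene IDs matched), promoters from RefSeq GRCm38.p6. Named genes were the 8 members, list or neighbouring genes that were called, genes that overlap members, and the 3 protein-coding genes nearest in profile to Armcx4 and Armcx5; the others named (the Miro and Trak genes, Armc10, Hnrnph2, Bex2 and those called with the block) were chosen after their values were seen. The members and lists were chosen with earlier results of these data known. A result for 1 called gene of the lists is not reported here.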

Additional observations from a re-analysis of the deposited data

How the results depend on the processing

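The fitted log2 difference of Armcx4 ranged from 0.78 to 1.10 and that of Armcx5 from -0.44 to -0.32 when 1 library was left out, and from 0.92 to 0.97 and from -0.42 to -0.37 in the other alternatives. Over the 8 members, 71 of 80 values kept their sign. The others, which had the other sign or rounded to 0, were 5 of Armcx6, 2 of Gprasp1 and 2 of Gprasp2. Armcx4 was not called with filterByExpr. Armcx5 was called with the batch block, with DESeq2 and without SD 1 only. The number of genes called was 692 (172 higher, 520 lower), against 2559 with the batch block, 1963 with DESeq2, 130 with no count filter, 1 with filterByExpr, 90 with protein-coding genes only (51 higher, 39 lower) and 202 to 2247 with 1 library left out (202 without NSD 1, 2247 without SD 1, 1083 without SD 2). On chromosome X it was 16, against 51 with the batch block, 35, 4, 0 and 2 in the same order of alternatives, and 9 to 40 with 1 library left out (9 without NSD 1, 40 without SD 1). For mitochondrial transport it was 2, against 0 with no count filter, 0 with filterByExpr, 0 with protein-coding genes only and 0 to 1 with 1 library left out. For receptor sorting it was 0, against 2 with the batch block, 2 with DESeq2 and 0 to 1 with 1 library left out (1 without SD 2). For mitochondrial transport the batch block added Kif5c, and it changed no call among the cluster families or the genes within 500 kb of a member. The cause of these shifts was not tested. In the order per kb, 2 members changed places in each alternative: Gprasp2 and Armcx2 by longest transcript, Armcx3 and Armcx1 in NSD 1 and in SD 2, Armcx4 and Armcx3 in NSD 2, and Gprasp2 and Armcx4 in SD 1.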

Other observations

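Chromosome X as a whole held 743 tested genes, of which 7 rose and 9 fell in the edgeR fit, Armcx4 and Armcx5 among them. Over all genes tested, 0.77% were called higher and 2.33% lower. Genes of this section were named after their values were seen. Those that rose included Tsc22d3, a glucocorticoid-induced leucine zipper gene, at 33.1 and 32.8 CPM in NSD and 42.8 and 43.6 CPM in SD (edgeR adjusted p = 0.0374), and Gabra3, a GABA-A receptor subunit, at 68.5 and 74.3 CPM in NSD and 91.3 and 90.3 CPM in SD (edgeR adjusted p = 0.0413). Those that fell included Gpc4, a glypican of the cell surface, at 28.1 and 29.9 CPM in NSD and 21.2 and 22.2 CPM in SD (edgeR adjusted p = 0.0397). The noncoding RNAs Ftx and Firre fell as well, Ftx from 19.7 and 12.0 CPM to 8.62 and 6.41 CPM (edgeR adjusted p = 0.0476) and Firre from 16 and 12.3 CPM to 8.70 and 6.49 CPM (edgeR adjusted p = 0.0397). Both are known to act in the nucleus. None of these 5 genes was called with no count filter or with filterByExpr, and Tsc22d3, Gabra3 and Gpc4 were not called among protein-coding genes only. Without NSD 1, Gabra3, Gpc4, Ftx and Firre lost their calls, as did Gpc4 without NSD 2 and Ftx with DESeq2 and with its size factors in edgeR.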
